A study of Mus musculus with 25 samples.

Results

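The genes described here are 10 that encode proteins of the sarcomere, the contractile unit of heart and skeletal muscle. They are Myh6, Myh7, Actc1, Tnnt2, Tnnt3, Tnni1, Tnni3, Myl2, Mybpc3 and Ttn. They and the gene lists set beside them were chosen by name, with earlier results of these data known. Each of the 10 was found among the 20665 autosomal protein-coding gene records of the mouse build mm10 (GRCm38.p6). For each gene, the length in bp covered by peaks of the repressive histone mark H3K27me3 was counted over its record and 5 kb on each side, called its window here, in each of 3 deposited peak lists. The lists came from lines A and B of mouse embryonic fibroblasts (MEF) immortalized with c-myc, profiled by ChIP-seq, and from wild-type neural progenitors (NPC) that had been made from embryonic stem cells, profiled by CUT&RUN. In CUT&RUN, an antibody-bound nuclease releases marked chromatin from intact nuclei for sequencing.

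The H3K27me3 libraries of line A were Ezh2 -/-, Ezh2 -/- with Ezh2 returned by the retrovirus pMSCV-Ezh2, and wild type, with 2 libraries each. Those of line B were Ezh2 -/- in a form called reversible, a rescue at the endogenous Ezh2 gene, and wild type, with 2 libraries each. The NPC libraries were treated with the inhibitors UNC1999 (2 uM) and A395 (4 uM), taken after washout of both, or untreated, with 2 libraries each. The remaining 7 of the 25 libraries (RNA polymerase II, H3K4me3, H3K36me3 and input) came from line A labelled Ezh2 -/- and have no peak list here. Each MEF line is a single immortalized line. The name of each MEF list joins 2 library names of its line. These were read as wild type and Ezh2 -/-, but the list names give no genotype. The NPC list names no treatment. The sources used here do not say which libraries entered each call. The lists therefore stand for cell systems, with no comparison of Ezh2 loss, rescue, inhibition or washout.

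H3K27me3 is placed by Polycomb repressive complex 2, whose catalytic subunit is Ezh2, and marks genes that a cell type keeps silent. In the sarcomere, myosin heavy chains and their light chains form the thick filament and pull on thin filaments of actin, tropomyosin and troponin, while titin and myosin-binding protein C order and tune the thick filament. Sarcomere genes are switched on in cardiomyocytes and myofibres and are largely silent in other cell types. RNA was not measured in the files used here.

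The line A list held 86235 peaks (median width 1420 bp), the line B list 81972 (1123 bp) and the NPC list 44807 (1458 bp), with no peak height and no read depth. They covered 11.4% (line A), 9.69% (line B) and 5.63% (NPC) of the autosomes between the first and last gene. With 1 list per cell system there was no replicate check, so no difference between lists was tested, and the NPC list differs from the MEF lists in assay as well as cell type. The labelled cell types were checked against peaks at marker genes. Of 10 fibroblast genes (Col1a1, Col1a2, Vim and others), 1 (line A), 0 (line B) and 2 (NPC) had a peak in the window. The line A peak was at Col1a1 (3.33% of the window), and the NPC peaks were at Pdgfrb (57.9%) and Fn1 (0.905%). The other 7 had no peak in any list, so these genes hardly told the cell types apart. Of 10 neural progenitor genes (Nes, Sox1, Pax6 and others), 7 (line A), 8 (line B) and 3 (NPC) had one. Over all genes the share with a peak was 40.2% (line A), 40.9% (line B) and 31.9% (NPC). Chromosome 7, which carries Tnnt3 and Tnni3, was covered over 10.4% (line A), 3.54% (line B) and 14.9% (NPC). The part that this chromosome-wide difference had in the values of both genes was not tested.

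Sarcomere genes carried H3K27me3 peaks in most cases, and the extent differed widely from gene to gene. A peak lay in the window of 9 (line A), 8 (line B) and 6 (NPC) of the 10 genes. Over all 20665 genes the share was 40.2% (line A), 40.9% (line B) and 31.9% (NPC). Among the 8893 genes whose records were as long as those of the sarcomere genes other than Ttn (4414 to 27957 bp), it was 39.9% (line A), 40.3% (line B) and 29.6% (NPC). The median covered share of the window was 23.4% (line A), 23.9% (line B) and 5.94% (NPC) for the 10 genes, against 0% in each list for all genes. Since each share is fixed by where 1 call set placed its peaks, these figures describe the lists, and their error could not be estimated.

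The genes fell into several patterns across the lists. Tnni1, Myl2, Mybpc3 and Ttn had a peak in all 3 lists, as had 19.5% of all genes. Myh6, Myh7 and Actc1 had peaks in both MEF lists and none in NPC, as had 12.5% of all genes. Tnnt2 and Tnnt3 had peaks in line A and NPC and none in line B, and Tnni3 had 1 in line B alone. The shares of all genes with these patterns were not counted, so it is not known whether they are common. None of the 10 had a peak in NPC alone (5.97% of all genes) or lacked one in every list (44.8%). With 10 kb in place of 5 kb on each side, Tnnt2 and Tnnt3 also had a peak in line B, which made 6 genes with a peak in all 3 lists. Over the record alone, with 2 kb on each side, or with at least 10% of the window covered, Tnnt2 met the limit in NPC alone. Where at least 10% of the window had to be covered, Myl2 and Mybpc3 alone met this in all 3 lists, 2 genes in place of 4. The shares of all genes were not recounted under these changed limits. At least 50% of the window was covered at 3 genes in line A (Myh6, Myh7 and Myl2), 4 in line B (the same and Actc1) and 0 in NPC, against 9.98% (line A), 9.71% (line B) and 3.91% (NPC) of all genes. It was covered in both MEF lists at 3 genes, as at 5.91% of all genes.

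**Figure D1:**
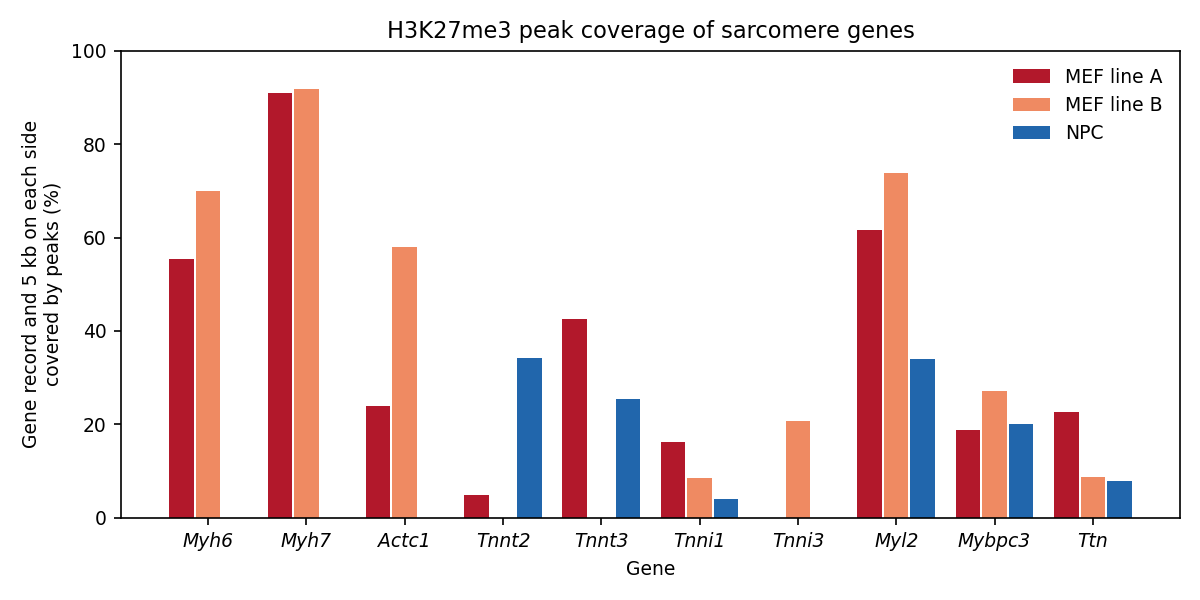
Share of each gene's window (record and 5 kb on each side, %) covered by H3K27me3 peaks, with bars for line A, line B and NPC and a missing bar for 0%. Myh7 reaches 90.9% in line A and 91.8% in line B with 0% in NPC, while Tnnt2 is highest in NPC at 34.2%.

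The motor genes Myh7 and Myh6 were covered over most of their windows in fibroblasts and not at all in NPC. Myh7 (NCBI gene 140781, chromosome 14, 54970684 to 54994626, minus strand) encodes the beta myosin heavy chain of the embryonic ventricle and of slow muscle. Its window was covered over 30.9 kb (90.9%) in line A, 31.2 kb (91.8%) in line B and 0 kb in NPC. A window covered at least as far was found at 1.68% of all genes for line A and 2.03% for line B. Coverage of at least 90% in both MEF lists with 0 in NPC was found at 42 genes (0.203%). The 3 genes over 100 kb away with the most similar shares (here for line A, line B and NPC) were Kcnk1, a potassium channel gene (90.7%, 91.9% and 0%), Gimap6, of a family of immune GTPases (90.9%, 90% and 0%), and Ccdc184 (93.3%, 92.8% and 0%). Likeness was the Euclidean distance over the 3 shares, which were 0.239, 1.87 and 2.58 percentage points away.

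Myh6 (NCBI gene 17888, chromosome 14, 54941921 to 54968017, minus strand), which lies 2.67 kb downstream, encodes the alpha heavy chain, the fast motor of the atria and of the adult mouse ventricle. Peaks covered its window over 20020 bp (55.5%) in line A, 25.2 kb (69.9%) in line B and 0 kb in NPC. A single peak reached from within Myh7 into Myh6 in each MEF line, 18.7 kb wide in line A and 30.1 kb wide in line B. The windows of both genes overlap, so their values are not independent. In line A the 500 kb on each side of the Myh7 window were themselves covered over 47.1%, against 22.3% in line B and 2.83% in NPC. The part that this peak-rich region of line A had in the values was not tested. In NPC a stretch of 267858 bp without a peak held both genes, and the nearest peak lay 115893 bp upstream of the Myh7 start.

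The promoters of both motor genes lay inside peaks in line A and line B over all 300 bases and are shown because they mark where the covered stretch meets the starts. They run 5′ to 3′ from 250 bases before to 50 after the start, from RefSeq on GRCm38.p6, Myh7 at chr14:54994577-54994876, minus strand (the first of 2 starts) and Myh6 at chr14:54966558-54966857, minus strand. Capitals mark a TATA box (TATAAA) or an MCAT element (CATTCC, read on either strand), the site of TEAD factors in muscle promoters.
Myh7 promoter: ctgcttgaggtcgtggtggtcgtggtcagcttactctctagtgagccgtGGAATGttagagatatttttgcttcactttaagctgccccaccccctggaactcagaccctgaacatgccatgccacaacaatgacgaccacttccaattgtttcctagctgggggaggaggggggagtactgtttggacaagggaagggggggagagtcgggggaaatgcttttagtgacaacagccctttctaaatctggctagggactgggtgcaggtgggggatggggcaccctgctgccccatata
Myh6 promoter: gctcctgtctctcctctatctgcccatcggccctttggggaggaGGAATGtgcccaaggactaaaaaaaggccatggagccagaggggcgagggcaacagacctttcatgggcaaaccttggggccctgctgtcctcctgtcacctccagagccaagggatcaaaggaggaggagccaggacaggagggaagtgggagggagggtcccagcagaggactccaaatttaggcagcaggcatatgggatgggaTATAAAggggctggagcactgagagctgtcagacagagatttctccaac
Each holds 1 MCAT element, at 201 to 196 bases before the Myh7 start and 206 to 201 before the Myh6 start, and the Myh6 promoter holds a TATA box just after the start given in the table. Of 20085 autosomal promoters in the table, 13.4% hold an MCAT element and 12.7% a TATA box. These matches describe the letters and do not show a bound factor.

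Each motor gene also hosts a microRNA, and only the hairpin of Mir208a differed between the MEF lists. Mir208a (83 bp hairpin inside Myh6) and Mir208b (77 bp hairpin inside Myh7) are muscle microRNAs known for lying within myosin genes. The Mir208b hairpin was covered over all 77 bp in both MEF lines and over 0 bp in NPC. The Mir208a hairpin was covered over all 83 bp in line A, and in line B it lay 738 bp past the nearest peak edge. The mature sequences are shown because both 3p arms share a seed and both 5p arms share another. They are RefSeq sequences of GRCm38.p6, minus strand, with the seed (bases 2 to 8) in capitals.
mmu-miR-208a-3p: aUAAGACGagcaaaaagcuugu
mmu-miR-208b-3p: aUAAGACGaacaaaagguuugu
mmu-miR-208a-5p: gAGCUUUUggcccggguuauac
mmu-miR-208b-5p: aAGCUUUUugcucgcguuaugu

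**Figure D2:**
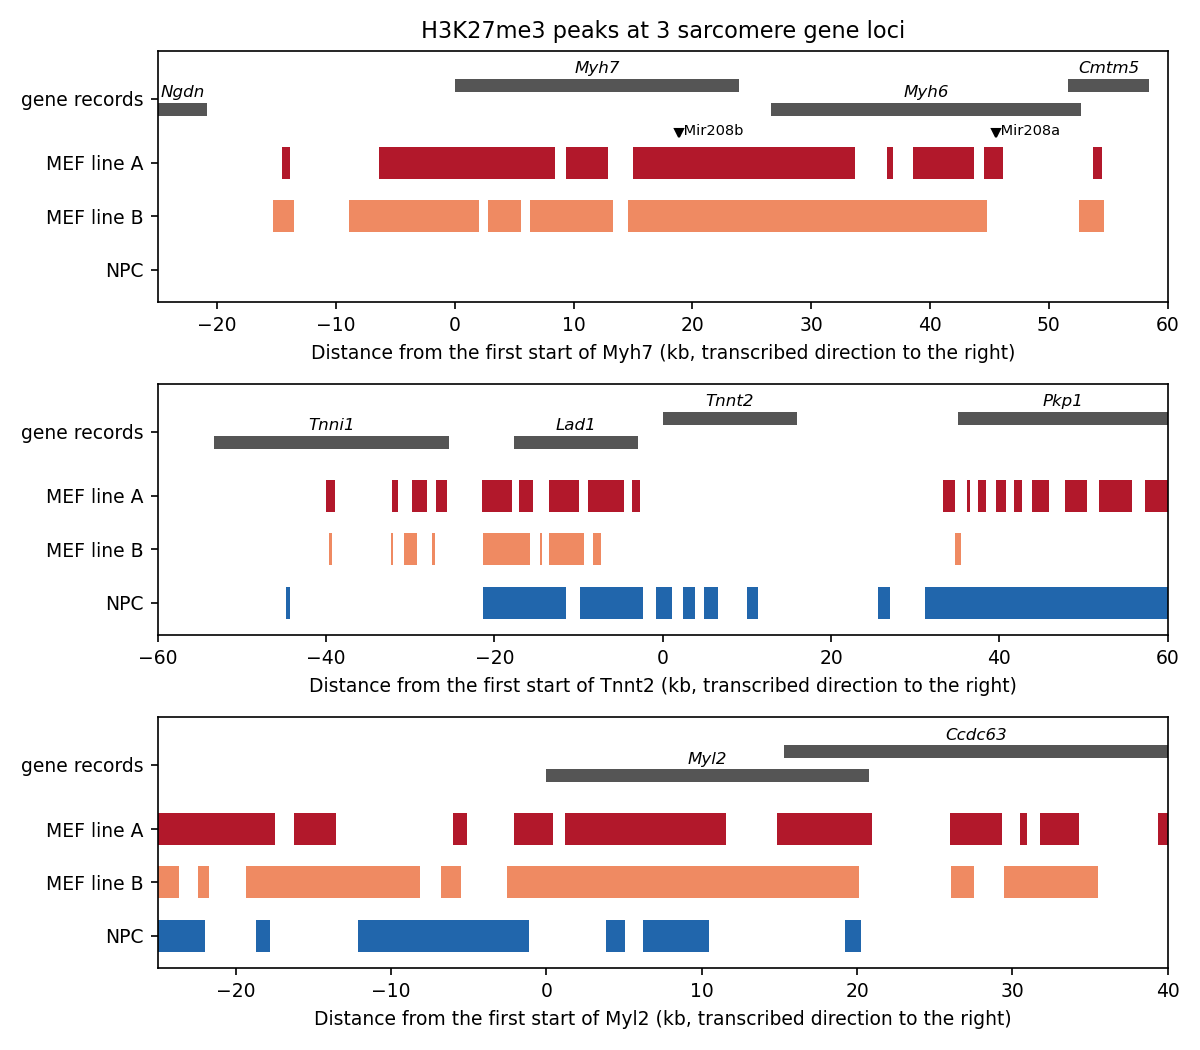
Peak maps at 3 loci, with distance in kb from the start of Myh7, Tnnt2 or Myl2 on the x axis, gene records as grey bars, microRNA hairpins as triangles, and 1 row of coloured bars per peak list. Both MEF rows are nearly filled over Myh7 while the NPC row is empty, and the NPC row has peaks inside Tnnt2 where the MEF rows have none.

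Myl2 (NCBI gene 17906, chromosome 5, 122092724 to 122113473, plus strand), the regulatory light chain of the ventricle and of slow muscle, was the second most covered gene and had peaks in all 3 lists. Peaks covered its window over 18.9 kb (61.6%) in line A, 22.7 kb (73.8%) in line B and 10.4 kb (33.9%) in NPC. In line B 1 peak of 22.7 kb spanned 97.1% of the record, whereas line A had 3 peaks and NPC 4. The flanking 500 kb were covered over 17.8% (line A), 17.8% (line B) and 7.54% (NPC), so the window stood above its surroundings in each list. The table gives 2 starts for Myl2, 465 bp apart. In line B both lay inside the long peak. In line A the first lay inside a 2517 bp peak and the second 33 bp past its end. In NPC both lay in a peak-free gap of 4947 bp between an upstream peak of 11015 bp and the peaks of the gene body. No gap separates Myl2 from its 3′ neighbour Ccdc63 in the table, and 1 peak in each list touched both.

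Mybpc3 (NCBI gene 17868, chromosome 2, 91118114 to 91136516, plus strand), which encodes cardiac myosin-binding protein C, had peaks at its 5′ end in all 3 lists. Its window was covered over 5.31 kb (18.7%) in line A, 7.70 kb (27.1%) in line B and 5.70 kb (20.1%) in NPC. A peak in the gene body ran from 1368 to 5411 bp after the start (line A), 1729 to 5799 bp (line B) and 2164 to 5408 bp (NPC). The flanking 500 kb were covered over 0.851% (line A), 3.62% (line B) and 0.511% (NPC), the lowest of the 10 genes in each list. The upstream neighbour Spi1, a blood cell factor gene 2.35 kb away, was covered over 7.18% (line A), 37.0% (line B) and 9.53% (NPC) of its window, and Madd, 0.844 kb downstream, over 0% in each list. The Spi1 window reaches into Mybpc3 and takes in part of the Mybpc3 peaks. The Spi1 record itself was covered over 1.79% (line A), 26.3% (line B) and 5.08% (NPC). At the start itself the lists differed. It lay inside a 1270 bp peak in line A and a 2976 bp peak in line B, and in NPC it lay in a gap of 2562 bp that began 399 bp upstream. The promoter (chr2:91117894-91118193, plus strand) is shown because it is the one that MEF peaks covered in full and NPC peaks flanked at the shortest distance. Capitals mark a MEF2 site and a GATA site (TGATAA).
Mybpc3 promoter: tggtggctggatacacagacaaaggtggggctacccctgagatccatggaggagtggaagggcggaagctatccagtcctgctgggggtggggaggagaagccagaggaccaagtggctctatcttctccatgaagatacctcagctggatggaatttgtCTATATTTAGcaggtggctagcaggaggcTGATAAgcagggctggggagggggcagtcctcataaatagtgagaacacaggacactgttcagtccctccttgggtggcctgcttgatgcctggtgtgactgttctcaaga
The MEF2 site lies 90 to 81 bases before the start and the GATA site 61 to 56 before it. MEF2 and GATA factors act at cardiac promoters. A MEF2 site is held by 2.62% of all promoters and a GATA site (TGATAA or AGATAA) by 15.7%.

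Ttn (NCBI gene 22138, chromosome 2, 76703980 to 76982557, minus strand) encodes titin, the giant protein that links the Z disc to the M line and acts as a spring. Its record of 278578 bp carried most of its covered length in its 5′ 50%, in NPC toward the middle of the record, and no peak at its 3′ end. The median width of peaks in the record was 1892 bp (line A), 788 bp (line B) and 1767 bp (NPC). The window held 23 peaks over 65.6 kb in line A (22.7%), 17 peaks over 24977 bp in line B (8.66%) and 7 peaks over 22.7 kb in NPC (7.86%). Of the covered length of the record, 73.2% (line A), 98.3% (line B) and 88.9% (NPC) lay in the 5′ 50% of the record. Counted from the 3′ end, the first 88.9 kb in line A, 137 kb in line B and 120 kb in NPC had no peak. With the record cut into 10 equal bins from the 5′ end, bin 5 was the most covered in line A (53.4% of the bin) and NPC (52.9%). In line B it was covered over 20.9%, and bin 1 over 31%. In NPC bins 1, 2 and 3 were covered over only 3.84%, 1.64% and 0%. Bin 5 held the widest peak of the record in line A (14.0 kb) and in NPC (12.5 kb). The start lay inside a 3647 bp peak in line A and an 8587 bp peak in line B, and 18425 bp from the nearest NPC peak. Its promoter (chr2:76982498-76982797, minus strand) holds a MEF2 site 166 to 157 bases before the start and an MCAT element just after it, in capitals here, and is shown as a start under MEF peaks far from any NPC peak.
Ttn promoter: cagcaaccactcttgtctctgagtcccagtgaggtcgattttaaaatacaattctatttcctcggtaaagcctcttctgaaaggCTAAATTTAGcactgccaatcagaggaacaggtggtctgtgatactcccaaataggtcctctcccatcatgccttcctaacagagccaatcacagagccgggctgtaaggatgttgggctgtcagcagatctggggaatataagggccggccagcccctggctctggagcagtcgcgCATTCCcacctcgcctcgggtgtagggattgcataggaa

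**Figure D3:**
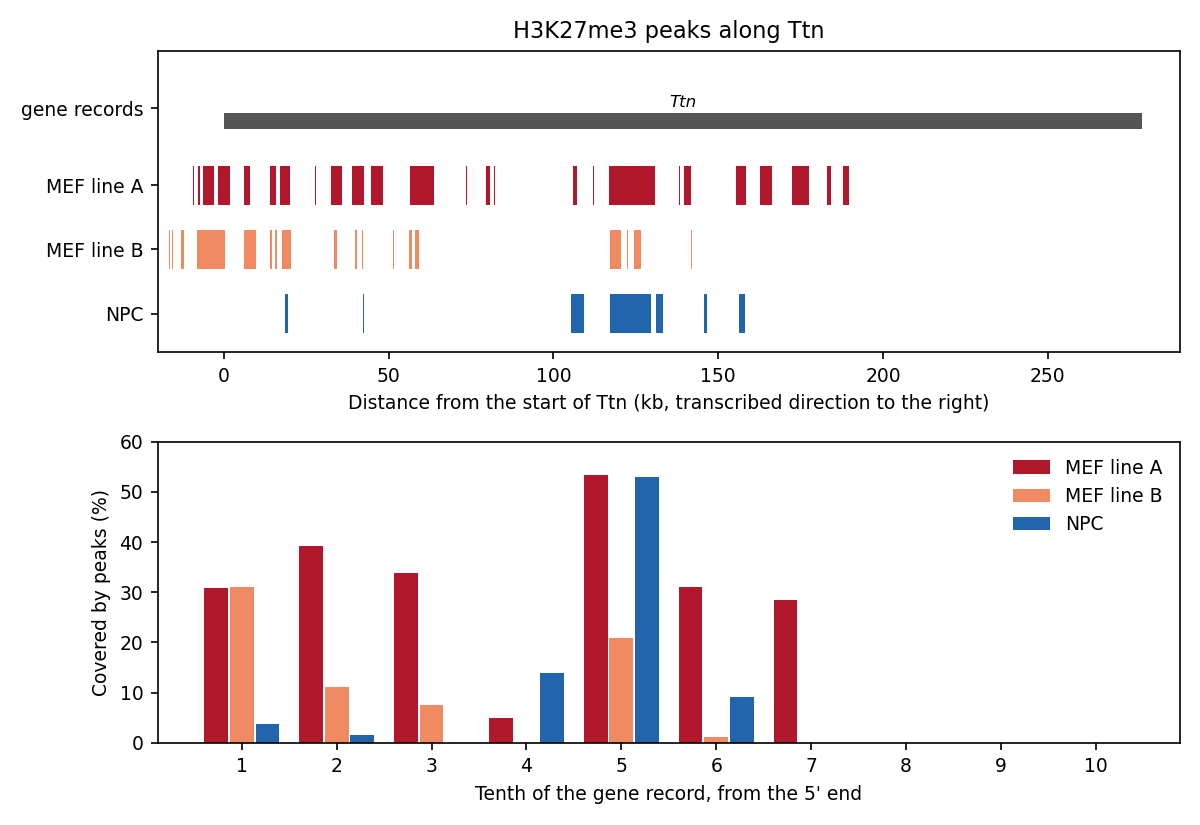
Peaks along Ttn against distance from its start in kb (upper panel), and the share of each of 10 equal bins of the record covered (%, lower panel), for line A, line B and NPC. Bins 8 to 10 are empty in every list, and bin 5 is covered over 53.4% (line A), 20.9% (line B) and 52.9% (NPC).

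Among thin filament genes, Actc1 (NCBI gene 11464, chromosome 2, 114047282 to 114052875, minus strand), which encodes cardiac alpha-actin, had peaks in its window in both MEF lines with its start left free. The covered length of its window was 3.75 kb (24.0%) in line A, 9.03 kb (57.9%) in line B and 0 kb in NPC. Over the record alone it was 341 bp (6.1%) in line A and 2484 bp (44.4%) in line B, so most of the line A length lay outside the record. In line B a 60.3 kb peak, in a list with a median width of 1123 bp, entered the 3′ end of the gene. It also covered all of the neighbouring window of Gjd2, a neuronal gap junction gene 32.9 kb away. In line A 2 peaks of 2998 and 748 bp lay at the 3′ end and upstream. The start lay in a gap of 922 bp in line B, with peak edges 390 bp upstream and 533 bp downstream, and in a gap of 6910 bp in line A. The nearest NPC peak lay 38023 bp from the start. The promoter (chr2:114052826-114053125, minus strand) is shown because both MEF lists leave it free. Capitals mark a CArG box, the site of serum response factor, and a TATA box.
Actc1 promoter: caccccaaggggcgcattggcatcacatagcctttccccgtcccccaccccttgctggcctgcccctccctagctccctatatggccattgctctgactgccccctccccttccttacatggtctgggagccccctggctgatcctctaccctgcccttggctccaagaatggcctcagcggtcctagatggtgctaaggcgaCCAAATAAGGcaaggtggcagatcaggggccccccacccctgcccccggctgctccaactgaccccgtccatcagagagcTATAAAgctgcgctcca
The CArG box lies 47 to 38 bases before the start, and 1.43% of all promoters hold one. The TATA box lies 33 to 38 bases after the start that the table gives.

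Tnnt2 (NCBI gene 21956, chromosome 1, 135836315 to 135852268, plus strand), which encodes cardiac troponin T, the subunit that ties the troponin complex to tropomyosin, was covered most in NPC. Its window was covered over 1.27 kb (4.90%) in line A, 0 kb in line B and 8.87 kb (34.2%) in NPC. The record itself was free of peaks in both MEF lists, and 34.2% of it was covered in NPC. In NPC 6.36% of all genes had a window covered at least as far. An NPC peak of 1881 bp spanned both starts that the table gives, from 800 bp before to 1080 bp after the first. The nearest MEF peaks ended 2761 bp (line A) and 7340 bp (line B) upstream. The 2 line A peaks in the window lay toward Lad1, the upstream neighbour, whose window was covered over 56.6% (line A), 43.6% (line B) and 77.1% (NPC). The downstream neighbour Pkp1, a desmosome gene, was covered over 76.5% (line A), 18.3% (line B) and 98.1% (NPC). The flanking 500 kb were covered over 18.1% (line A), 19.7% (line B) and 17.3% (NPC). The promoter at the first start (chr1:135836084-135836383, plus strand) is shown because Tnnt2 was the single gene, of the 9 with a start in the promoter table, with a start under an NPC peak. Capitals mark a GATA site (read on the other strand) and an MCAT element.
Tnnt2 promoter: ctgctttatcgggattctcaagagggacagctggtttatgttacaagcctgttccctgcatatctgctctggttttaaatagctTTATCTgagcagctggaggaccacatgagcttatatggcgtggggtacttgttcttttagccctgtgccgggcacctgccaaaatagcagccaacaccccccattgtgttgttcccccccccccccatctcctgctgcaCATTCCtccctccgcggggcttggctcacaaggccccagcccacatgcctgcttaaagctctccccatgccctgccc
The GATA site lies 166 to 161 bases before the start and the MCAT element 27 to 22 before it.

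The other troponin genes had smaller or more one-sided coverage. Tnni1 (NCBI gene 21952, chromosome 1, 135783033 to 135810989, plus strand), the slow skeletal troponin I that is also the form of the fetal heart, stands upstream of Tnnt2 with Lad1 between them. Its window was covered over 6.20 kb (16.3%) in line A, 3.26 kb (8.60%) in line B and 1.52 kb (4.01%) in NPC. No list covered its starts, which lie 16388 and 16478 bp inside the record. The nearest peak was 2058 bp (line A), 2411 bp (line B) and 7359 bp (NPC) from the first start. Part of the count at its 3′ side came from peaks that run on toward Lad1, of 3541 bp (line A), 5529 bp (line B) and 9767 bp (NPC).

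Tnnt3 (NCBI gene 21957, chromosome 7, 142498771 to 142516213), the troponin T of fast skeletal muscle, was covered over 11.7 kb (42.5%) of its window in line A, 0 kb in line B and 7.01 kb (25.5%) in NPC. Over the record alone the covered length was 8055 bp (line A), 0 bp (line B) and 2633 bp (NPC). Line B was also the lowest list over chromosome 7 as a whole. The flanking 500 kb were covered over 45.3% (line A), 22.0% (line B) and 52.9% (NPC), so in each list the window lay below its surroundings. The nearest line B peak lay 7790 bp outside the record.

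Tnni3 (NCBI gene 21954, chromosome 7, 4518305 to 4522718, minus strand), the troponin I of the adult heart, had a peak in line B only. That peak was 2982 bp wide, covered 67.6% of the record and ended 70 bp short of the start. The line B list has the fewest peaks on chromosome 7 (2535, against 4920 in line A and 6012 in NPC). The nearest peaks in the other lists lay 14820 bp (line A) and 11199 bp (NPC) from the record. Its neighbour Tnnt1, the slow skeletal troponin T gene 2.33 kb away, had 7% of its window covered in line B and 0% in the others. Those 1499 bp were part of the same Tnni3 peak, and no list covered the Tnnt1 record. The nearer neighbour on the other side, Dnaaf3, 0.215 kb away, was covered over 0% (line A), 28.3% (line B) and 18.3% (NPC) of its window. That window holds the whole Tnni3 peak, and the Dnaaf3 record was covered over 5.66% in line B and 0% in the others.

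Across the 9 genes with a start in the promoter table, MEF peaks lay over the starts of thick filament and titin genes and missed those of the thin filament genes in the table. At least 1 start lay inside a peak at 5 genes in line A (Myh6, Myh7, Myl2, Mybpc3 and Ttn), at the same 5 in line B, and at 1 in NPC (Tnnt2). Among 16457 genes in the table the shares were 13.2% (line A), 14.4% (line B) and 9.35% (NPC). The starts of Actc1, Tnni1 and Tnni3 lay in a gap in every list. A start inside a peak in both MEF lists was found at 8.74% of all genes, and one inside an NPC peak and neither MEF peak, as at Tnnt2, at 3.63%. None of the 9 genes had a start inside a peak in all 3 lists (3.35% of all genes). With so few genes, the division between filaments was not tested.

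**Figure D4:**
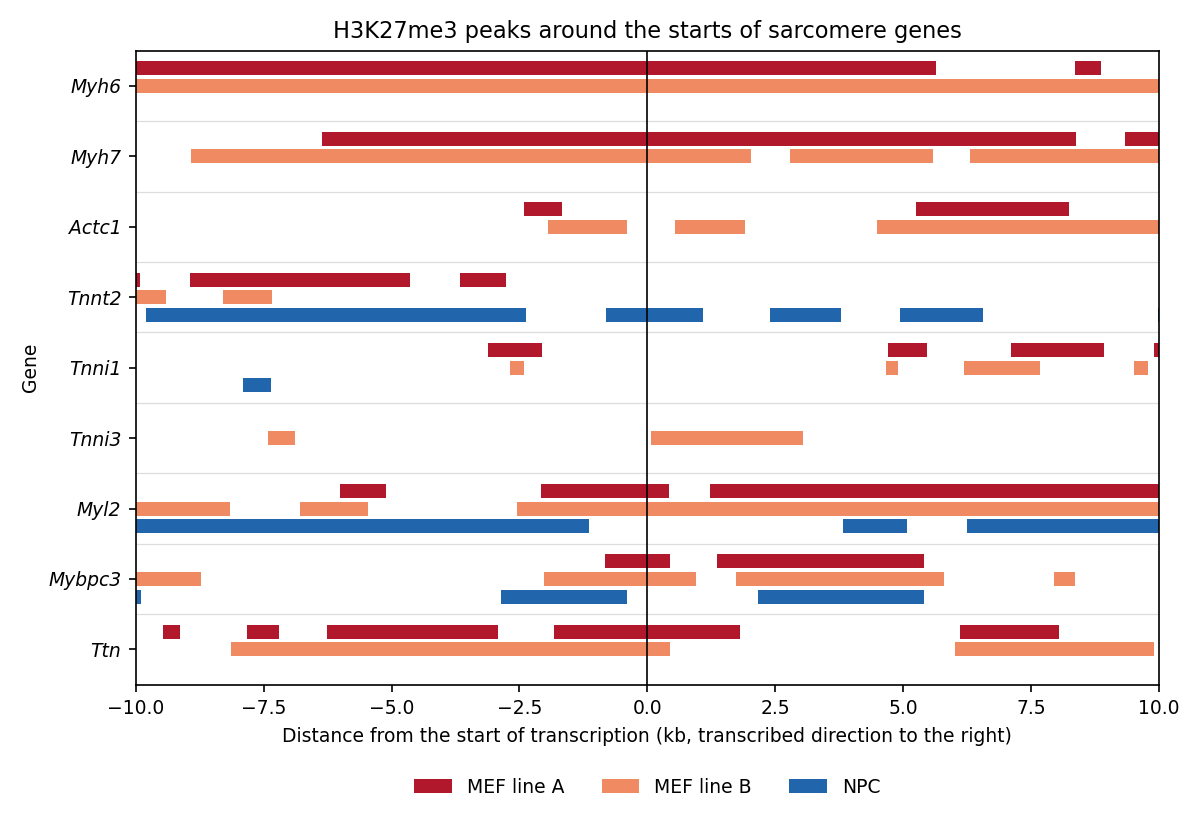
Peaks within 10 kb of the first start of each of 9 genes, with distance in kb on the x axis (transcribed direction to the right), and line A, line B and NPC from top to bottom within each gene. MEF bars cross the line at 0 at Myh6, Myh7, Myl2, Mybpc3 and Ttn, and the NPC bar crosses it at Tnnt2.

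The promoters of these genes were poor in CpG dinucleotides. At the first start they held 1 to 8 CpGs in 300 bases (median 5), against a median of 14 over all 20085 promoters. The observed over expected CpG ratio had a median of 0.226, against 0.586 over all promoters. Their GC content was closer, with a median of 55% against 57%. Over all promoters, the CpG count had a median of 7 in promoters whose start lay inside a line A peak and 15 in the rest. The medians were 9 and 14 for line B peaks and 12 and 14 for NPC peaks. An E-box (CANNTG), the site of myogenic and other bHLH factors, was held by all 9 first-start promoters and by 68.7% of all promoters, and E-boxes are not in capitals above. MCAT elements were held by 4 of 9, GATA sites by 3, TATA boxes by 2, MEF2 sites by 2 and a CArG box by 1. No overlap between these motifs was removed.

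The fibroblast lists shared much of their covered length over sarcomere genes. With the windows merged into 9 regions of 531.8 kb, line A peaks covered 156.3 kb, line B peaks 119.7 kb and NPC peaks 56.19 kb. The length shared by line A and line B was 56.9% of the line A length and 74.2% of the line B length, against 46.3% and 54.2% over all autosomes. Line A and NPC shared 22.5% of the line A length and 62.7% of the NPC length (20.1% and 40.6% over all autosomes). Line B and NPC shared 17.2% of the line B length and 36.7% of the NPC length (18.8% and 32.3%). Ttn supplied 65.6 kb of the line A length. At Myh7 the MEF lists shared 95.2% of the line A and 94.2% of the line B length, and at Tnni1 they shared 32.8% and 62.3%.

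The other genes of the sarcomere also carried peaks in most cases in MEF, and skeletal myosin genes were among the most covered in line A. Of 44 further sarcomere genes, 29 (65.9%, line A), 28 (63.6%, line B) and 21 (47.7%, NPC) had a peak in the window. Over all genes the share was 40.2% (line A), 40.9% (line B) and 31.9% (NPC). The median covered share of the 44 was 7.22% (line A), 6.61% (line B) and 0% (NPC). No list had a peak at 9 of them (Tnni2, Tnnc1, Tnnc2, Myl4, Mylpf, Tpm1, Myom1, Myoz1 and Tmod4), as at 44.8% of all genes. In the myosin cluster of chromosome 11, Myh13, of extraocular muscle, was covered over 95.1% (line A), 49.4% (line B) and 88.4% (NPC). Myh3, the embryonic myosin gene, was covered over 72.7% (line A), 73.0% (line B) and 58.4% (NPC). Myh2 (the 2A motor of fast muscle) was covered over 100% (line A), 0% (line B) and 37.5% (NPC). Myh1 (the 2X motor) was covered over 90% (line A), 0% (line B) and 22.1% (NPC). Myh7 and Myh6 were thus covered in both MEF lists, and Myh2 and Myh1 in line A and NPC. Outside the cluster, Myot (myotilin of the Z disc) was covered over 83.7% (line A), 82.4% (line B) and 52.5% (NPC), and Myl1 (the fast essential light chain) over 77.0% (line A), 64.9% (line B) and 44.5% (NPC).

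Genes for the non-muscle forms of the same proteins were mostly free of peaks. A peak lay in the window of 3 (line A), 3 (line B) and 1 (NPC) of 14 such genes. These are shares of 21.4% (line A), 21.4% (line B) and 7.14% (NPC), against 40.2% (line A), 40.9% (line B) and 31.9% (NPC) of all genes. Of the 14, 10 (among them Actb, Actg1, Myh9 and Actn4) had 0 bp in every list, as had 44.8% of all genes. The exceptions in MEF were Myl9 (21.4% in line A and 25.2% in line B), a light chain of smooth muscle and non-muscle myosin, Myh14 (18.8% and 22.7%), a non-muscle heavy chain, and Tpm3 (7.30% and 0.586%), a tropomyosin also made in slow muscle. In NPC it was Myh10 (0.323%), a non-muscle heavy chain.

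**Figure D5:**
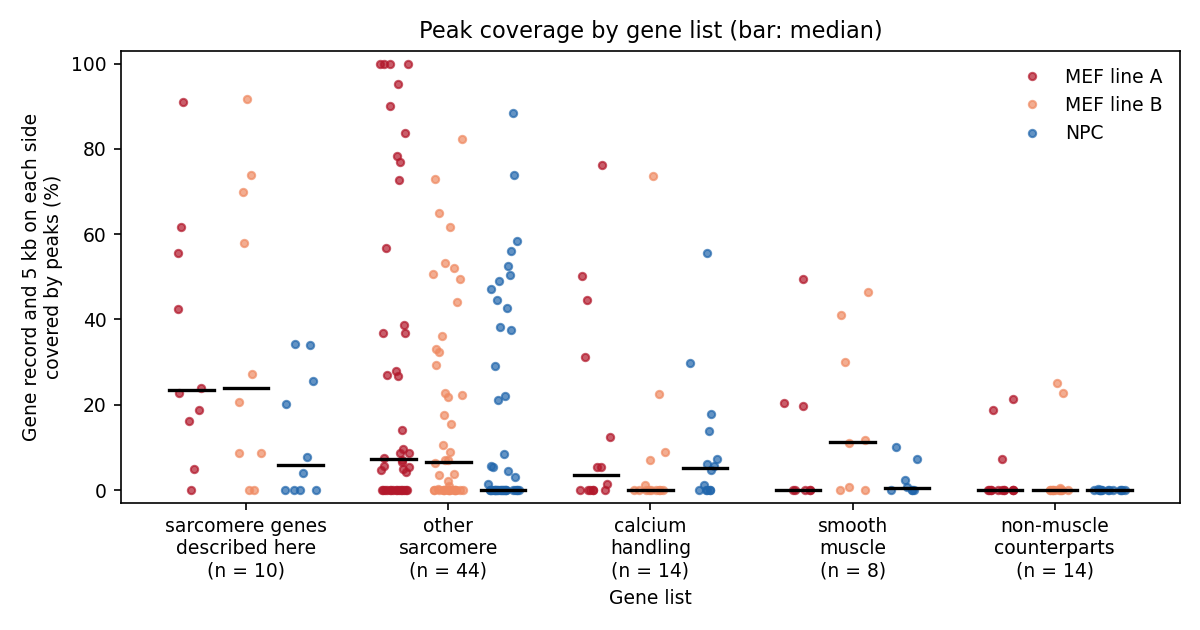
Covered share of the window (%) for each gene of 5 lists, with a point per gene and a black bar at the median, for line A, line B and NPC. The medians of the 10 sarcomere genes described here are 23.4% (line A), 23.9% (line B) and 5.94% (NPC), and those of the 14 non-muscle counterparts are 0% in every list.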

How the data were processed

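H3K27me3 was measured by ChIP-seq in 12 MEF libraries and by CUT&RUN in 6 NPC libraries, with 7 further libraries not used here, per the labels. The authors deposited 3 BED files of peak chromosome, start and end, with no header, score or count, and each belongs to the series and to no sample. Per the submitters' processing notes, MACS2 2.1.1.20160309, Bowtie2 2.2.9, deepTools, DESeq2 and Picard were used, with builds dm6 and mm10, and their roles are not stated there. No source used here gives the peak threshold, control or pooling, and depth is unknown. A broader or more lenient call could lengthen the covered stretches.

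Starts were read as 0-based and are printed 1-based. Covered bp were summed over gene records of a RefSeq table (GRCm38.p6) and 5 kb on each side with Python 3.11.15 and pandas 2.3.3, at a minimum overlap of 1 bp. The code was checked on simulated intervals. Starts of transcription and strands came from a RefSeq promoter table, which gave an entry for 9 of the 10 genes, and Tnnt3 is named without one. Motifs were searched on both strands, and positions count from 0 at the start base. All 10 symbols matched the gene table. The table gives no exons, so exons and introns were not told apart.

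The genes and gene lists were chosen with earlier results of these data known. Every one of the 10 is named. From other lists, the text names up to 4 genes with the largest summed covered share and up to 2 covered in 1 MEF list only. Of non-muscle genes at 0, Actb, Actg1, Myh9 and Actn4 were chosen after their values were seen. Further sarcomere genes at 0 in every list are all named. No test was run, since lists have no replicates.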

Additional observations from a re-analysis of the deposited data

How the results depend on the processing

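No paired analysis was possible because the peak lists carry no values per sample, and for the same reason no replicate could be left out. The counts of sarcomere genes with a peak were recomputed under 8 alternatives (the record alone, 2 or 10 kb on each side, at least 500 bp or 10% of the window covered, peaks of at least 1 kb, the 44807 widest peaks of each list, and peaks less than 3 kb apart joined). Over these the count was 8 or 9 of 10 in line A, 6 to 10 in line B and 4 to 6 in NPC. The shares of all genes were not recounted under these alternatives. The counts therefore do not show whether the difference from all genes holds under them. The count in both MEF lists and not in NPC was 3 throughout. The count in every list was 4 to 6, except that it was 2 with at least 10% of the window covered, where Tnni1 and Ttn fell under the limit in line B and in NPC. Without the genes of chromosome 7, an alternative chosen after seeing the data, the counts were 8, 7 and 5 of 8. Of 180 covered lengths of single genes under 6 of these settings, 27 moved by over 1.5 times, 8 of them over the record alone and 9 with 10 kb on each side. Without peak heights, a gap between peaks cannot be told from signal just under the authors' threshold.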

Other observations

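Calcium handling genes couple excitation to contraction in muscle. A peak lay in the window of 8 (line A), 5 (line B) and 9 (NPC) of 14. These are shares of 57.1% (line A), 35.7% (line B) and 64.3% (NPC), against 40.2% (line A), 40.9% (line B) and 31.9% (NPC) of all genes, and the differences were not tested. Cacna1s, the calcium channel of skeletal muscle, was covered over 44.5% (line A), 73.6% (line B) and 17.8% (NPC). Jph2, a junctophilin that holds the cardiac dyad together, was covered over 76.3% (line A), 22.5% (line B) and 29.8% (NPC). Sln, the sarcolipin gene, was covered over 50.3% (line A), 0% (line B) and 55.6% (NPC). Atp2a1, the calcium pump of fast muscle, on chromosome 7, was covered over 31.3% (line A), 0% (line B) and 6.13% (NPC).

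A peak lay in the window of 3 (line A), 6 (line B) and 4 (NPC) of 8 smooth muscle contractile genes. These are shares of 37.5% (line A), 75% (line B) and 50% (NPC), against 40.2% (line A), 40.9% (line B) and 31.9% (NPC) of all genes. The differences were not tested. Actg2, the enteric actin gene, was covered over 49.4% (line A), 46.4% (line B) and 10.2% (NPC), and Myh11, the smooth muscle myosin, over 19.8% (line A), 41.1% (line B) and 0.731% (NPC). Lmod1 was covered over 20.3% (line A), 30.0% (line B) and 7.33% (NPC). Mylk was covered over 0% (line A), 11% (line B) and 2.43% (NPC), and Cnn1 over 0% (line A), 11.7% (line B) and 0% (NPC). Acta2 and Tagln had 0 bp in every list, and were named after their values were seen.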
